A study of Mus musculus with 2 samples.

Results

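The genes described are 32 genes of the unfolded protein response and of the secretory chaperone machinery, chosen by name from the array annotation out of 20410 genes measured. They were read in bone marrow-derived mast cells, which are mast cells grown from marrow of C57BL/6 mice. Of 2 one-colour arrays, 1 carried RNA of cells transfected with GATA1 siRNA and 1 carried RNA of cells transfected with a control siRNA, each at 200 pmol. GATA1 is a DNA-binding factor that mast cells share with the red cell, platelet and eosinophil lineages. Both cultures had grown for 2 weeks in 10 ng/mL interleukin 3 and for 2 further weeks in interleukin 3 with 10 ng/mL stem cell factor. RNA of 2 animals was pooled for each array, so the spread between animals cannot be seen. The stretch of Gata1 that the siRNA pairs with was not stated. Since each group is 1 array, differences between the groups lack any replicate check and carry no p-values. The small number of arrays limits their precision.

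The endoplasmic reticulum (ER) folds secreted and membrane proteins, and unfolded protein there is sensed by IRE1 (gene Ern1), PERK (gene Eif2ak3) and ATF6. Activated IRE1 splices the mRNA of Xbp1, cleaved ATF6 enters the nucleus, and both factors raise chaperone and degradation genes through ER stress elements in their promoters. PERK phosphorylates an initiation factor of translation, which slows protein synthesis while favouring translation of ATF4, and ATF4 in turn raises Ddit3 (the protein CHOP), Trib3, Asns and Chac1. Mast cells are secretory cells that store large amounts of proteases in granules, all of which pass through the ER. The 32 genes were taken in 4 roles: 4 sensors and factors, 15 chaperones and folding enzymes, 7 genes of degradation and translocation, and 6 genes of the ATF4 branch.

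Many of these genes share a sequence in their promoters. They were chosen by name as genes of a response known to act through ER stress elements. The share of promoters with the element is therefore not independent of the choice. RefSeq promoter windows (build GRCm38.p6, from 250 bases before the transcription start to 50 after it) were at hand for 28 of the 32 genes, 27 matched by symbol and Ero1l by its newer name. Atf6, Derl1, Hyou1 and Manf had no entry. The ER stress element is CCAAT, then any 9 bases, then CCACG, and exact copies of it were searched on both strands. It stood in 9 of the 28 promoters (32.1%), against 37 of 27025 genes with a promoter window (0.137%). So 9 of those 37 genes are among the 32 described here, and whether the others belong to this response was not looked at. The elements of the 9 genes are shown 5′ to 3′ on the strand on which they read, with the CCAAT and CCACG parts in capitals and 8 bases on either side.

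Hspa5: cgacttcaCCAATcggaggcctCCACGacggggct
Hsp90b1, distal: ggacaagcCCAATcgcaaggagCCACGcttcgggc
Hsp90b1, proximal: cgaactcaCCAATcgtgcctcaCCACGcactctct
Calr: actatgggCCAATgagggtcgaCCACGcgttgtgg
Canx: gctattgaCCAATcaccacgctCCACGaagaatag
Creld2: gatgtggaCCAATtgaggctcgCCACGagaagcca
Pdia6: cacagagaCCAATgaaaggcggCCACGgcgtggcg
Dnajc3: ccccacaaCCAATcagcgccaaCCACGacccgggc
Derl3: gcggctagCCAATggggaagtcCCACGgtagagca
Syvn1: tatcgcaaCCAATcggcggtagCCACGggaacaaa

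The element of Hspa5 lies at chr2:34772017-34772051 with its flanks and begins 65 bases before the start site. Canx, Pdia6, Dnajc3 and Syvn1 also carry theirs on the gene strand, Calr, Creld2 and Derl3 on the opposite strand, and Hsp90b1 carries 1 on each. The CCAAT part and the CCACG part are fixed by the search, and the 9 bases between them differ in all 10 elements. A second form, ER stress element II, is ATTGG, then any 1 base, then CCACG. It stood in 2 of the 28 promoters (7.14%), against 12 of the 27025 genes (0.0444%), and both are shown in the same way.

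Herpud1: gggcgctgATTGGgCCACGttggacac
Dnajb11: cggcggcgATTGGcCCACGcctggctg

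The element of Herpud1 begins 52 bases before the start site and that of Dnajb11 lies 8 bases after it. By role, 8 of the 13 chaperone promoters and 3 of the 6 promoters of degradation and translocation genes held an element of either form. None of the 3 sensor promoters and none of the 6 ATF4 branch promoters did. Of 154 promoters of other genes of the ER and of the ATF4 programme, taken from 6 lists described further on, 2 held one (Ero1b, an oxidase paralogous to Ero1l, and Krtcap2, a subunit of the oligosaccharyltransferase). The CCAAT box alone, which overlaps every one of these elements, stood in 21 of the 28 promoters (75%) and in 41.1% of all genes. Exact copies of TGACGTGG (an element of XBP1 and ATF6) and of TGATGCAAT (a C/EBP-ATF element) were in none of the 28, and in 0.714% and 0.222% of all genes. All of these are exact matches of letters in a short window, near copies were not searched, and they do not show binding.

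**Figure D1:**
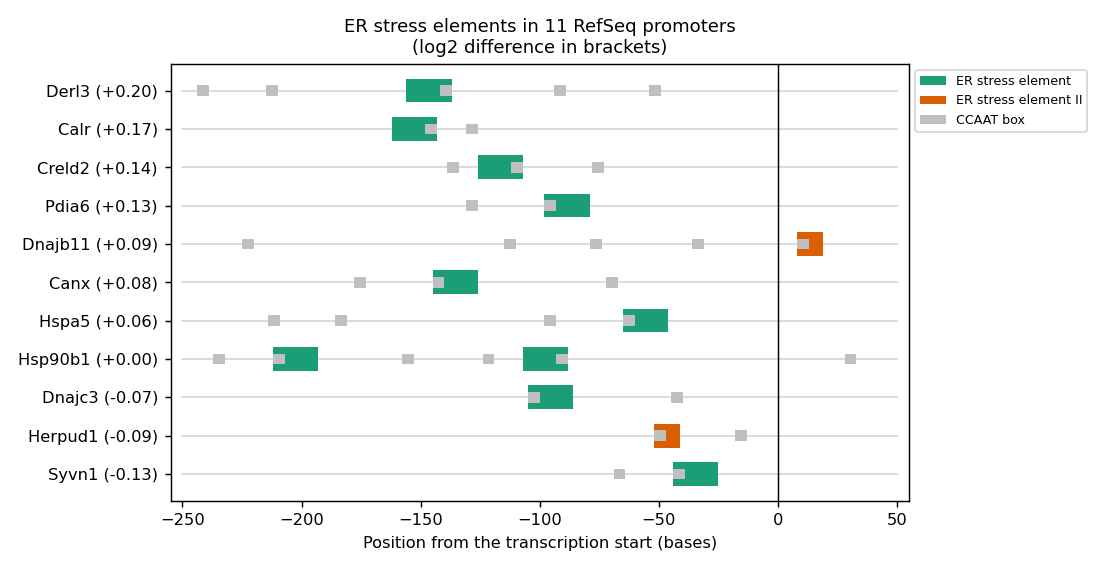
Position of ER stress elements (green), ER stress elements II (orange) and CCAAT boxes (grey) in 11 promoters, in bases from the transcription start, with each gene's log2 difference, GATA1 siRNA minus control siRNA, in brackets. The elements of 10 genes lie upstream of the start, and that of Dnajb11 lies 8 bases after it.

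To set the promoters beside the array values, the 250 bases upstream of the start are given for Hspa5, a chaperone with the element, for Pdia4, the gene with the highest difference, and for Trib3, the gene with the lowest. CCAAT boxes on either strand and the CCACG part of the element are in capitals. The stretches are chr2:34771840-34772089 (plus strand) for Hspa5, chr6:47813513-47813762 (minus strand) for Pdia4 and chr2:152344061-152344310 (minus strand) for Trib3. Hspa5 shows 4 CCAAT boxes, the last of them inside its ER stress element. Pdia4 shows 3 CCAAT boxes without an exact copy of the element, and Trib3 shows no CCAAT box. The ATTGG of Pdia4, read on the opposite strand, is followed at the element's spacing by CCACT in place of CCACG. Such near copies were not searched.

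Hspa5: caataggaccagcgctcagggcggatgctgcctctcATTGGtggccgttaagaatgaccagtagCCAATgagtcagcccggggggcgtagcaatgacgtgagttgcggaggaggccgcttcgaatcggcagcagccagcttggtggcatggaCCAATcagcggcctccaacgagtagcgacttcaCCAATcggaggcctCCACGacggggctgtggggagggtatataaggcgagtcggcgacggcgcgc
Pdia4: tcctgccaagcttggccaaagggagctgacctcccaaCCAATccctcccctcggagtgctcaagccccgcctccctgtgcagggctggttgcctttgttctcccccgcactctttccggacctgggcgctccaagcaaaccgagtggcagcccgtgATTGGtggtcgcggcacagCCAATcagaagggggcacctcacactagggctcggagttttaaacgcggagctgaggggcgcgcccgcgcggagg
Trib3: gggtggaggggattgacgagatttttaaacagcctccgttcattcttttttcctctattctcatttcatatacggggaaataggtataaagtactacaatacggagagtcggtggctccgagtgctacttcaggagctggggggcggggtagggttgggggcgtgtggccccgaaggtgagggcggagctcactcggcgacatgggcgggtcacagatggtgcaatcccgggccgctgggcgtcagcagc

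Of 59305 spots for genes, 55.7% exceeded background clearly with GATA1 siRNA and 53.3% with control siRNA, and none was saturated. Signals were divided by each array's 75th percentile and are called scaled signals. Differences are log2 of the scaled signal, GATA1 siRNA minus control siRNA. Gata1 itself had a scaled signal of 11.6 with GATA1 siRNA and 54.1 with control siRNA, 4.68-fold lower (error 0.20 on the log2 scale). All 12 mast cell markers were measured, among them Kit, the stem cell factor receptor (211.4 with GATA1 siRNA and 206.4 with control siRNA), Cpa3, the granule carboxypeptidase (857.6 with GATA1 siRNA and 836.3 with control siRNA), and Fcer1a, an IgE receptor chain (507.6 with GATA1 siRNA and 571.4 with control siRNA). Of the 12 markers, 8 had a difference below 0 and 3 (25%) were lower by at least 0.322, against 9.51% of all genes. Mcpt4 was the lowest of them at -0.88. Over all 20410 genes the median difference was 0.01 with an SD of 0.29, and 52.7% of these genes lay above 0.

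All 32 genes were measured on both arrays, through 39 of their 42 probes, and none was as much as 1.5-fold apart. The differences ran from -0.44 (Trib3) to 0.45 (Pdia4). A difference was counted from 0.322 on the log2 scale, which is a scaled signal 25% higher or 20% lower. By this rule 1 of the 32 genes (3.13%) was higher with GATA1 siRNA and 3 (9.38%) were lower. Among all measured genes 7.31% were higher and 9.51% were lower by the same rule, so the share of lower genes here is near that of the whole array. In all measured genes 1.83% were at least 1.5-fold higher and 2.76% at least 1.5-fold lower, and 0.294% and 0.608% at least 2-fold higher or lower. With the authors' own scaling the split of the 32 genes was 1 higher (Pdia4) and 1 lower (Trib3), and that of all genes 10.4% higher and 7.17% lower. With loess scaling all genes split into 8.51% higher and 7.38% lower. The median over the 32 genes was 0.02, and it was below 0 under 6 of the 13 alternatives, lowest with quantile scaling (-0.03).

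The measure of error at hand is that of the scanner software, which was between 0.12 and 0.25 for these genes with a median of 0.20. By it, 8 of the 32 differences were larger than their own error. The same count was not made for all measured genes, whose differences had an SD of 0.29. These 8 therefore have no share of the whole array to be read against. Of these 8 genes, Pdia4, Sel1l, Edem1 and Dnajb9 were on the higher side and Trib3, Ddit3, Chac1 and Asns on the lower. Dnajb9 passed by the mean of 2 probes that disagree, at 0.31 and 0.00. Repeated spots agreed more closely than that error. For 240 measured probes with 10 spots each, the SD of the difference over spots had a median of 0.06, and for Creld2, printed 10 times, the spots ran from 0.09 to 0.21 with an SD of 0.03. None of the genes' spots lay where neighbouring spots of the slide differ together, and none was an outlier spot. These errors cover the array and not the cells or the animals.

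**Figure D2:**
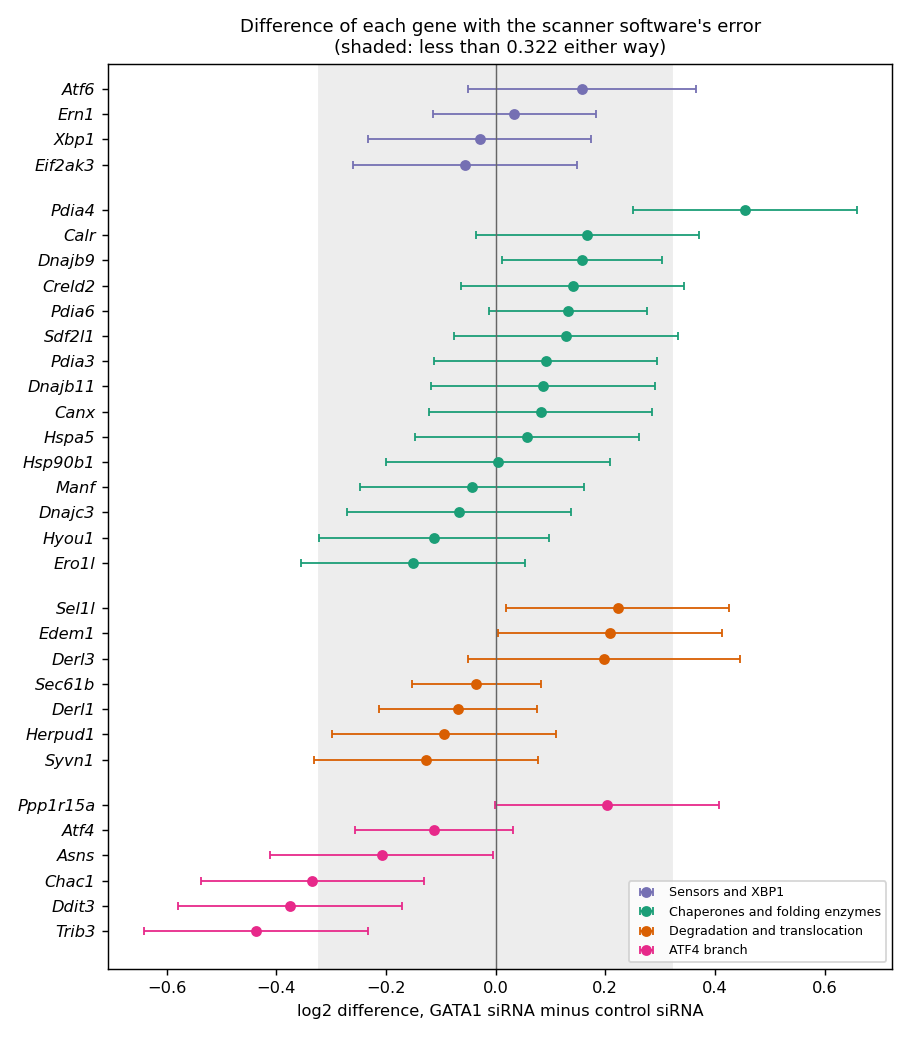
Log2 difference, GATA1 siRNA minus control siRNA, of each of the 32 genes by role, with bars of the scanner software's error and a shaded band of 0.322 either way. Pdia4 (0.45) lies right of the band, and Chac1 (-0.33), Ddit3 (-0.38) and Trib3 (-0.44) lie left of it.

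The ATF4 branch was the role with the lowest values, with a median of -0.27, against 0.01 over all genes. Of its 6 genes 5 lay below 0, where 9653 of all 20410 measured genes did. Trib3, a pseudokinase that ATF4 and CHOP raise, had a scaled signal of 33.0 with GATA1 siRNA and 44.7 with control siRNA, a difference of -0.44 (error 0.20). Ddit3, the gene of the stress factor CHOP, had 4.33 with GATA1 siRNA and 5.61 with control siRNA, a difference of -0.38. Chac1, which degrades glutathione, had 4.56 with GATA1 siRNA and 5.75 with control siRNA, a difference of -0.33. These 3 genes are the only ones of the 32 counted as lower, and each rests on 1 probe. Their probes lie, in the mm9 build of the array annotation, at chr2:152163161-152163220 on the minus strand (Trib3), at chr10:126732518-126732821 on the plus strand (Ddit3) and at chr2:119179990-119180049 on the plus strand (Chac1).

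Asns, asparagine synthetase, had a scaled signal of 35.0 with GATA1 siRNA and 40.4 with control siRNA, a difference of -0.21, just past its error. Atf4 itself differed less. Its bright probe read 284.5 with GATA1 siRNA and 295.4 with control siRNA (-0.05), and its dim probe 4.19 with GATA1 siRNA and 4.72 with control siRNA (-0.17), which gives a mean of -0.11 (error 0.14). ATF4 is controlled largely at translation, which an array does not read. Ppp1r15a, the phosphatase subunit GADD34 that reverses the action of PERK, went the other way, at 31.3 with GATA1 siRNA and 27.2 with control siRNA. Its difference of 0.20 did not exceed its error. The signs of all 6 genes held under each of the 13 alternatives tried, and the median of the branch stayed between -0.32 and -0.21. Several of these alternatives shift every gene by the same small amount or leave a gene with 1 probe unchanged. They could hardly turn these signs and are a weak check.

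**Figure D3:**
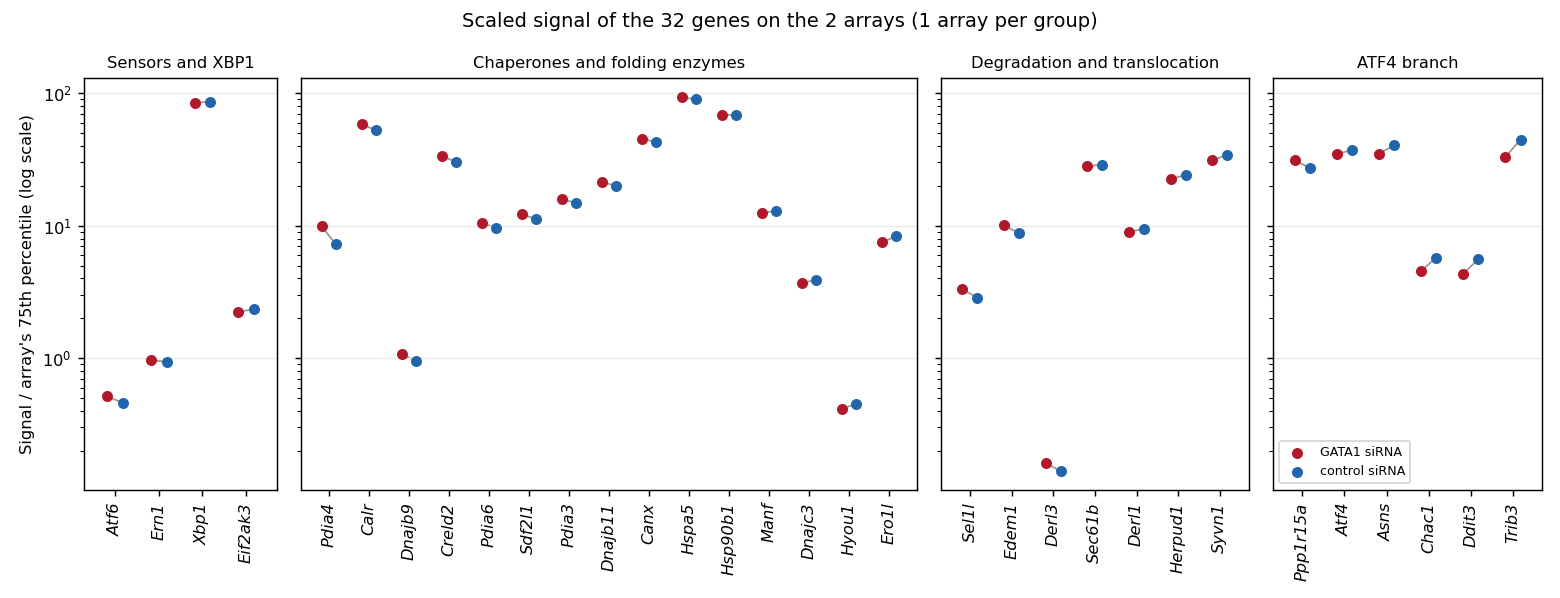
Scaled signal (log axis) of each gene on the GATA1 siRNA array (red, left) and on the control siRNA array (blue, right), joined by a line, in 4 panels by role. Within the ATF4 branch Trib3, Ddit3 and Chac1 show the steepest lines (33.0, 4.33 and 4.56 with GATA1 siRNA, against 44.7, 5.61 and 5.75 with control siRNA), and heights of different genes depend on their probes and are not compared.

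A wider list of 42 genes that ATF4 is known to raise (amino acid synthesis, amino acid transport, transfer RNA charging and stress factors) was set beside the branch. Of 40 measured, 5 (12.5%) were lower by at least 0.322 with GATA1 siRNA and 1 (2.5%) was higher. Over all genes 9.51% were lower and 7.31% higher. The list median was -0.06, where that of all genes was 0.01. With the authors' scaling the list median was 0.00 and that of all genes 0.07. The lower genes were Nupr1, a stress-induced chromatin protein (9.07 with GATA1 siRNA and 13.3 with control siRNA, -0.55), Yars, a dim tyrosyl-tRNA synthetase gene (0.18 with GATA1 siRNA and 0.24 with control siRNA, -0.41), Mthfd2, a mitochondrial folate enzyme (7.14 with GATA1 siRNA and 9.27 with control siRNA, -0.38), Atf5, a factor related to ATF4 (31.5 with GATA1 siRNA and 40.8 with control siRNA, -0.38), and Slc7a5, an amino acid transporter (2.4 with GATA1 siRNA and 3.1 with control siRNA, -0.37). Of these, Yars, Mthfd2, Atf5 and Slc7a5 were chosen after their values were seen. The higher gene was Stc2, a secreted glycoprotein and the largest difference of the list at 0.56, with dim signals of 0.165 with GATA1 siRNA and 0.112 with control siRNA.

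Chaperones and folding enzymes had a median of 0.09 with 11 of 15 genes above 0, where 52.7% of all measured genes lay above 0. Their median stayed above 0 under every alternative, between 0.03 and 0.15, but it moved with the scaling. With quantile scaling it was 0.029, where that of all genes was 0, and with loess scaling 0.030, where that of all genes was 0.006. With the authors' scaling it was 0.15, where that of all genes was 0.07. Several alternatives shift every gene by the same small amount, so the sign is weakly checked. The single gene past 0.322, on either side, was Pdia4, a disulfide isomerase of the ER. It had a scaled signal of 9.91 with GATA1 siRNA and 7.23 with control siRNA, 1.37-fold higher, a difference of 0.45 with an error of 0.20. It rests on 1 probe, at chr6:47746516-47746575 on the minus strand (mm9), and its difference stayed between 0.40 and 0.52 under the 13 alternatives. The other disulfide isomerases were closer to 0, with Pdia6 at 10.5 with GATA1 siRNA and 9.61 with control siRNA (0.13) and Pdia3, the partner of the lectin chaperones, at 15.8 with GATA1 siRNA and 14.9 with control siRNA (0.09). The probes of Pdia6, of very unlike brightness, gave 0.12 and 0.14. Ero1l, the oxidase that recharges these isomerases, had 7.49 with GATA1 siRNA and 8.32 with control siRNA, the lowest difference of the role at -0.15 and within its error.

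The lectin chaperones hold glycoproteins during folding. Calr, calreticulin, had a scaled signal of 58.7 with GATA1 siRNA and 52.3 with control siRNA (0.17), and Canx, calnexin, had 45.4 with GATA1 siRNA and 42.9 with control siRNA (0.08). Both differences are within the error of 0.20. Hspa5, the Hsp70 chaperone BiP that is the usual marker of ER stress, had 93.3 with GATA1 siRNA and 89.7 with control siRNA, a difference of 0.06. Hsp90b1, the Hsp90 of the ER, had 68.7 with GATA1 siRNA and 68.5 with control siRNA (0.00), and its sign turned with the scaling. Hyou1, a nucleotide exchange factor for BiP, had dim signals of 0.42 with GATA1 siRNA and 0.45 with control siRNA (-0.11).

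None of the BiP cochaperones was past 0.322. Dnajb9 had a mean difference of 0.16, from a brighter probe at 2.43 with GATA1 siRNA and 1.96 with control siRNA (0.31) and a dimmer probe at 0.469 with GATA1 siRNA and 0.468 with control siRNA (0.00). Dnajb11 had 21.3 with GATA1 siRNA and 20.1 with control siRNA (0.09), while its other probe was not well above background on either array. Dnajc3, which binds unfolded protein in the ER and was first known as an inhibitor of eIF2 kinases, had 3.71 with GATA1 siRNA and 3.88 with control siRNA (-0.07). Of the smaller stress-induced ER proteins, Creld2 had 33.5 with GATA1 siRNA and 30.4 with control siRNA (0.14), Sdf2l1 had 12.3 with GATA1 siRNA and 11.2 with control siRNA (0.13), and Manf, a secreted protective factor, had 12.5 with GATA1 siRNA and 12.9 with control siRNA (-0.04). Creld2 was beyond the spread of its own 10 spots but within its scanner error of 0.20, and no other of these 6 genes has repeated spots.

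Genes of ER-associated degradation and translocation lay on both sides of 0, with a median of -0.03, where that of all genes was 0.01. With the authors' scaling the median of these genes was 0.03 and that of all genes 0.07. Sel1l, the adaptor of the HRD1 ubiquitin ligase, had a scaled signal of 3.32 with GATA1 siRNA and 2.85 with control siRNA, a difference of 0.22. Edem1, which marks misfolded glycoproteins for disposal, had 10.1 with GATA1 siRNA and 8.74 with control siRNA (0.21). These 2 differences are just past their error of 0.20. Syvn1, the HRD1 ligase itself and the partner of SEL1L, had 31.3 with GATA1 siRNA and 34.1 with control siRNA (-0.13), and Herpud1, which joins that complex, had 22.6 with GATA1 siRNA and 24.1 with control siRNA (-0.09).

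The derlins, channel proteins of the same pathway, were Derl1, at 9.01 with GATA1 siRNA and 9.45 with control siRNA (-0.07, probes at -0.12 and -0.02), and Derl3, at 0.161 with GATA1 siRNA and 0.141 with control siRNA. Derl3 had the widest error of the 32 genes (0.25), and its difference of 0.20 became -0.01 with normexp background correction. Sec61b, a subunit of the translocation channel, had 28.2 with GATA1 siRNA and 28.9 with control siRNA. Its 3 probes lay between -0.11 and 0.06, on both sides of 0.

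The sensors had a median difference of 0.00, whose sign turned with the scaling, and none was past its error. Eif2ak3 (PERK) had a scaled signal of 2.25 with GATA1 siRNA and 2.33 with control siRNA (-0.05). Atf6 had 0.51 with GATA1 siRNA and 0.46 with control siRNA (0.16). Xbp1, the factor activated by splicing, had 84.6 with GATA1 siRNA and 86.3 with control siRNA (-0.03), read by 1 probe at position 1740 of its transcript, away from the spliced stretch of the coding sequence, so that the spliced form was not measured apart.

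Ern1 (IRE1) has 4 probes. The brightest, for the RefSeq transcript, had 3.20 with GATA1 siRNA and 3.33 with control siRNA (-0.06). A second, for another transcript model, had 0.29 with GATA1 siRNA and 0.27 with control siRNA (0.12). Of the remaining probes, 1 was above background on the control siRNA array only and 1 on neither array, at scaled signals of 0.06 or less. The mean of the measured probes was 0.03 with an error of 0.15.

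The promoter groups can be set beside the array values. The 11 genes whose promoter holds an ER stress element or element II had differences between -0.13 (Syvn1) and 0.20 (Derl3), with a median of 0.08 and 8 of 11 above 0. The 17 genes with a promoter window and no exact copy of either element ran from -0.44 to 0.45, with a median of -0.03 and 8 of 17 above 0. They include the 4 genes past 0.322 and all 6 genes of the ATF4 branch, so that this split follows the roles in part. Of all measured genes 52.7% lay above 0. Among chaperones without an exact copy, Pdia4 (0.45), Dnajb9 (0.16), Sdf2l1 (0.13) and Pdia3 (0.09) were above 0 and Ero1l (-0.15) below.

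The rest of the ER machinery was read through lists of 20 other sensors and factors, 39 other folding factors, 30 other degradation factors, 32 genes of ER entry and N-glycosylation and 28 genes of ER-Golgi transport. Their medians were 0.11, 0.05, 0.05, 0.05 and 0.04, where that of all genes was 0.01. With quantile scaling they were 0.095, 0.015, 0.025, 4.35e-05 and -0.021, where that of all genes was 0. Over these lists and the ATF4-responsive list together, 180 of 191 genes were measured, none of them 1.5-fold apart. In all, 4 were higher by at least 0.322 (2.22%) and 9 lower (5%), shares under the 7.31% and 9.51% of all genes.

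The factors list had 16 of 18 measured genes above 0, against 52.7% of all genes. The largest differences in it were Creb3l2, a membrane-bound factor processed like ATF6, at 2.32 with GATA1 siRNA and 3.26 with control siRNA (-0.49), and Ern2, the dim epithelial paralogue of Ern1 (0.39). In the folding list they were Fkbp7, a prolyl isomerase (-0.35), and Uggt1, the glucosyltransferase that retains unfolded glycoproteins (0.319). In the degradation list they were Ubxn4, which recruits the p97 segregase, at 0.45 with GATA1 siRNA and 0.32 with control siRNA (0.49), and Ngly1, the cytosolic N-glycanase (-0.28). Of ER entry they were Tram2, a translocation-associated protein (0.39), and Dad1, an oligosaccharyltransferase subunit (-0.36, from probes that disagree at -0.79 and 0.07), and of transport the COPII coat genes Sec24d (-0.34) and Sec24b (0.31).

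**Figure D4:**
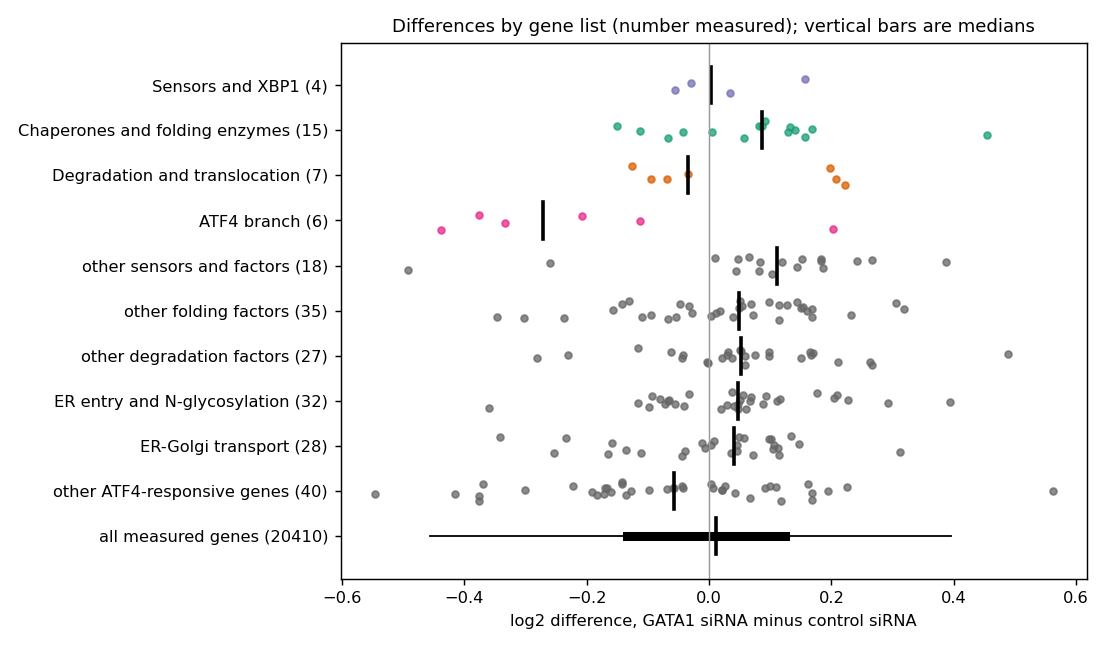
Each point is a gene's log2 difference (GATA1 siRNA minus control siRNA), by role (coloured) and for 6 other lists (grey), with vertical bars at the medians and, in the lowest row, the median, quartiles and central 90% of all 20410 genes. The ATF4 branch has the lowest median (-0.27), and the other lists have medians between -0.06 and 0.11.

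Markers of other cell types differed between the arrays beside these values, and their part in them was not tested. In bulk RNA, fewer cells of a type and less RNA per cell cannot be told apart. Of 15 neutrophil markers 14 were measured, with a median difference of 0.54, 12 of them higher by at least 0.322 and 1 lower (Ctsg at -0.37, named after its value was seen). Their summed scaled signal was 223.1 with GATA1 siRNA and 200.0 with control siRNA. Ctsg alone gave 79.9 of the sum with GATA1 siRNA and 103.0 with control siRNA. Itgb2l showed the largest difference (1.01), from dim signals of 0.18 with GATA1 siRNA and 0.09 with control siRNA. Of 14 macrophage and monocyte markers 11 were measured, with sums of 33.7 with GATA1 siRNA and 24.1 with control siRNA, and differences from -0.94 (Cx3cr1, named after its value was seen) to 1.09 (Ms4a7). Of these 11, 4 (36.4%) were higher by at least 0.322 and 2 (18.2%) lower. Over all genes, the share to set beside each of these lists, 7.31% were higher and 9.51% lower. All 8 eosinophil markers were measured, with sums of 24.4 with GATA1 siRNA and 32.2 with control siRNA, and differences from -0.85 (Epx) to 0.60 (Siglec5 in the array's naming, named after its value was seen). Of these 8, 1 was higher by at least 0.322 and 4 lower. The 12 mast cell markers summed to 2595 with GATA1 siRNA and 2827 with control siRNA, with Mcpt4 at -0.88, Tpsb2 at -0.55, Il1rl1 at -0.32, Fcer1a at -0.17, Cma1 at -0.12, Fcer1g at -0.12, Hdc at -0.07, Gata2 at -0.05, Ms4a2 and Mitf at 0.01, and Kit and Cpa3 at 0.03 and 0.04. Of these 12, 3 (25%) were lower by at least 0.322 and 0 higher. Of 11 B cell and plasma cell markers, cells with a very active ER, 3 were measured, with sums of 0.39 with GATA1 siRNA and 0.44 with control siRNA, and Cd79a at -0.38. Among those not well above background on both arrays were Sdc1, Irf4, Mzb1, Igj, Pax5, Ms4a1 and Tnfrsf17.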

How the data were processed

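Total RNA was labelled with Cy3 (100 ng, Low Input Quick Amp kit, per the labels' protocols) and read on 2 arrays of 1 slide. The deposited spot signals are intensity values from Agilent's Feature Extraction software 10.7.3.1, per the file headers: background-subtracted, detrended across the surface, dim spots replaced by surrogates, not scaled between arrays. The authors' deposited table of normalized intensity equals each array's processed signal over its median (found by matching values) and served as an alternative.

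Outlier spots (133 on the GATA1 siRNA array, 117 on the control siRNA array) were left out, repeated spots averaged on the log2 scale, and signals put on a common scale by the 75th percentile over 55659 probes (340.0 for GATA1 siRNA, 303.2 for control siRNA). A probe was measured if both arrays flag it well above background and unsaturated. A gene is the mean of its measured probes under the array's gene name, and the scanner software's error was carried through. Since each group is 1 array, rules of size (0.322 on the log2 scale, 1.5-fold and 2-fold) replaced a test. The computation was tested on simulated data.

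All 32 genes are named. Of each other list the 2 largest absolute differences and every gene past 1.5-fold are named, all mast cell markers, and the largest difference of each other marker list. The genes and lists were chosen with earlier results of these data known. Promoters are from RefSeq (GRCm38.p6), array coordinates are mm9, and coordinates were not converted. Protein sequences were not used here. Alternatives used limma 3.58.1 (R 4.3.3, normexp with offset 50), statsmodels 0.14.6 (loess, span 0.4), pandas 2.3.3 and numpy 2.4.6 in Python 3.11.15. A marked spot has at least 2 spots within 23 pixels that differ at least 4-fold between the arrays (998 spots, 1.68%).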

Additional observations from a re-analysis of the deposited data

How the results depend on the processing

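No paired analysis was possible because each group is 1 array, and for the same reason no array could be left out. Several of the 13 alternatives shift every gene by the same small amount or leave a gene with 1 probe unchanged, so they check signs only weakly. Over 13 alternatives, 24 of the 32 genes kept the sign of their difference. Ern1, Eif2ak3, Xbp1, Hsp90b1, Dnajb11, Manf, Derl3 and Sec61b did not. Without the filter on dim probes Dnajb11 was at -0.13, and by its brightest probe Dnajb9 was at 0.31. The counts of these 32 genes past 1.5-fold and 2-fold were 0 under every alternative. The lists hold few genes, so that 1 gene moves a count by much, and the cause of each move was not tested. The median of all genes was 0.01, and 0.07 with the authors' table, a shift that moves every value with that scaling. Of all genes, 7.31% were higher and 9.51% lower by at least 0.322. These shares were 3.4% and 3.15% with normexp, 33.3% lower without the filter on dim probes, and 6.24% and 6.16% with a scaled signal of at least 0.1. Dim genes limit what can be seen: the scanner error was 0.25 for Derl3.

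With the authors' table the median of the 32 genes was 0.0806, that of the chaperones 0.15, and 1 gene was lower by at least 0.322. The other medians were 0.17 for factors, 0.11 for folding, 0.11 for degradation, 0.11 for entry, 0.10 for transport and 0.0037 for ATF4-responsive genes. Counts past 0.322, higher and lower, were 2 higher for factors, 2 and 0 for folding, 3 higher for degradation, 2 and 0 for entry, 1 and 0 for transport, and 2 lower for ATF4-responsive genes. With quantile scaling the 32 genes had a median of -0.0291 and the chaperones 0.0293, with folding at 0.0148, entry at 4.35e-05, ATF4-responsive genes at -0.0910 and transport at -0.0212. With loess scaling the medians were -0.0191 for the 32 genes, 0.0297 for chaperones, 0.0164 for folding, -0.000475 for entry and -0.0136 for transport.

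With normexp the counts past 0.322 were 0 higher for factors, 0 lower for folding, 0 higher for degradation, 0 and 0 for entry, 0 higher and 3 lower for ATF4-responsive genes and 0 lower for transport. Without the filter on dim probes they were 2 lower for factors, 2 and 2 for folding, 2 higher for entry and 9 lower for ATF4-responsive genes. With brighter probes only (scaled signal of at least 0.1) factors had 0 higher and entry 0 lower. With the brightest probe entry had 0 lower and transport 1 higher. With marked spots left out folding had 1 higher and 0 lower. Scaling on probes above background on both arrays gave 2 lower for folding by their 75th percentile, and by their median 1 higher for folding and 1 higher for transport.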
